A study of Mus musculus with 3 samples.

Results

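The 60 genes described here encode proteins of the nucleolus and of ribosome biogenesis. They were taken by gene symbol from a fixed list, out of 22976 genes in the count table. The rule used symbols and no values, but the members were chosen with earlier results of these data known. All 60 were found, each as 1 gene, and all 60 were among the 13705 genes that passed the filter on low counts, with no fewer than 164 reads for any of them in any library. Polyadenylated RNA was sequenced from NSC-34, a mouse line made by fusing neuroblastoma with embryonic spinal cord cells enriched in motor neurons. The control was 1 library of wild-type cells whose own treatment label is none, although the protocol text shared by all libraries names PR20, and the resistant group was 2 libraries, clone 1 and clone 2, of wild-type cells that had become resistant to PR20 spontaneously, with a labelled exposure of 10 µM PR20 over 3 weeks. PR20 consists of proline-arginine repeats, which cells also make from the C9ORF72 repeat expansion. Each resistant group library came from 1 clone, all cells shared the same line and serum-containing medium, and the labels do not state separate cultures for the clones, so each p-value reflects the variation of these libraries alone and that variation may be technical.

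Ribosome production begins in the nucleolus, where RNA polymerase I copies the ribosomal DNA into a long precursor. Small nucleolar ribonucleoproteins (snoRNPs) modify this precursor, large assembly complexes fold and cut it, and the small and large subunits then mature along separate routes before export. Arginine-rich dipeptide repeat proteins of the C9ORF72 kind are known to enter nucleoli, and nucleolar size and ribosome output are generally tied to cell growth.

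The libraries held between 11307034 and 11700755 gene counts, and mitochondrial transcripts took between 1.25% and 1.72% of them. By edgeR's test with an adjusted p under 0.05, 24.3% of all 13705 tested genes rose and 25.8% fell in the clones. Of 17 tested neuronal markers, which define the line, 17 fell in the clones, with a summed level of 3617 CPM (gene counts scaled to a common library total with TMM factors) in the control and 725 and 691 CPM in the clones. In these bulk samples, fewer cells of a type and less RNA per cell cannot be told apart. Of 25 proliferation genes 21 rose and 1, Rrm2, fell, and their summed level was 4608 CPM in the control and 6376 and 6798 CPM in the clones. Of 9 tested fibroblast and mesenchymal markers 4 rose and 2 fell, with summed levels of 1205, 1434 and 1589 CPM in the control, clone 1 and clone 2. Most of that sum was Vim alone, at 1102, 1334 and 1458 CPM, so it does not describe the other markers. The 3 tested glial markers summed to between 5.21 and 7.49 CPM in every library. Only 1 immune marker, Cd68, was tested, at between 0.666 and 1.08 CPM. Of the 10 glial markers in the count table, 4, 1 and 2 had no read in the control, clone 1 and clone 2. Of the 7 immune markers there, 1, 2 and 3 had none. The part of these lists in the results below was not tested.

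The first question was whether genes of ribosome production stood at another level in the resistant clones than in untreated cells. Of the 60 genes, 37 rose and 2 fell in the clones by edgeR's quasi-likelihood test with an adjusted p under 0.05, and 21 did not pass. Among all 13705 tested genes, 24.3% rose and 25.8% fell, which is 50.1% in either direction. Restricted to the 8678 genes whose control level lay within the range of the 60, 32.2% rose and 27.5% fell. Both clones stood above the control for 48 of the 60 genes and both below it for 9, against 44.0% and 44.5% of all tested genes. For all 37 genes that rose both clones were above the control, and for both genes that fell, Imp4 and Utp4, both clones were below it.

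The rises were small. The median log2 fold change of the 60 genes was 0.26, against 0.002 over all tested genes, and the values ran from -0.28 to 1.24. Among the 37 genes that rose, 30 rose by less than 1.5-fold and 7 by at least 1.5-fold (7.82% of all tested genes rose that far). Those 7 were Tcof1, Rrp9, Fbl, Utp14a, Mphosph10, Rrp12 and Ubtf, and Tcof1 alone passed 2-fold. The reads of the 60 genes together made up 0.876% of the control library, 1.01% of clone 1 and 1.02% of clone 2. With 1 control library, the spread comes from the clones alone (1 residual degree of freedom). DESeq2's test called 23 of the 60 higher and 0 lower (unadjusted p under 0.05 for 29 and 1). Of all 22976 genes, counted with or without an adjusted p, it called 6.06% higher and 5.94% lower. With no low-count filter edgeR called 0 of the 60 in either direction (unadjusted p under 0.05 for 38 higher and 2 lower). With a preset variation of 20% between libraries it called 1, Tcof1, as higher. At that setting 1.14% of all tested genes were called higher and 7.24% lower, so 1 of 60 is near the share of all genes. The authors' deposited table, also made with DESeq2 on these libraries, lists an adjusted p for all 60. It was under 0.05 for 23 of them as higher and for 0 as lower. Of the 13906 genes with an adjusted p there, 10.0% were higher and 9.77% lower, the closer shares to set beside the 60.

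**Figure D1:**
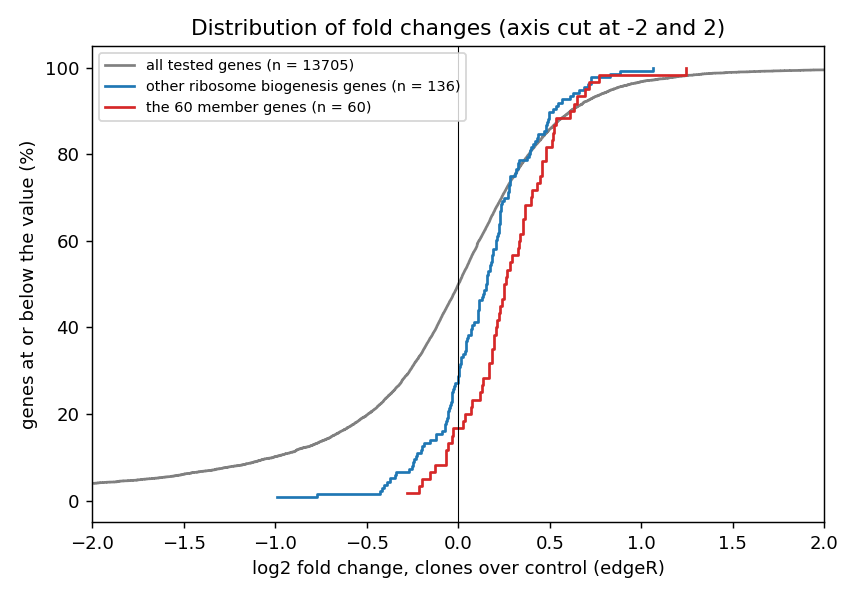
Cumulative distribution of the edgeR log2 fold change, clones over control, for the 60 ribosome biogenesis genes, 136 other genes of the pathway and 13705 tested genes. The horizontal axis ends at -2 and 2, so the tails of all tested genes are not shown. The curve of the 60 genes, from -0.28 to 1.24, lies to the right of the others through the middle of its range.

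Nucleolar scaffold proteins and RNA chaperones held the most abundant transcripts. Of these 6 genes, 5 rose and 1, Npm1, did not pass (24.3% of all tested genes rose). Tcof1 (ENSMUSG00000024613.16; GRCm38 chromosome 18, 60813755 to 60848971) encodes treacle, which brings RNA polymerase I and snoRNPs to the ribosomal DNA and is mutated in Treacher Collins syndrome. Its level was 61.3 CPM in the control and 143 and 148 CPM in the clones, with a fitted log2 change of 1.24 ± 0.07 (SE; adjusted p by edgeR = 4.38e-10). The clones lay close together and well above the control, and this was the largest change among the 60 genes. The median log2 fold change of all 339 tested genes of chromosome 18 was 0.41, and 55.5% of them rose.

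Mybbp1a, which encodes a MYB-binding nucleolar protein that associates with RNA polymerase I, was at 259.9 CPM in control cells and at 373 CPM in both clones, with a fitted log2 change of 0.52 ± 0.05 (adjusted p by edgeR = 6.13e-07). Nolc1, the gene of a snoRNP chaperone, rose from 202 CPM to 259 and 258 CPM (log2 change 0.36 ± 0.05, adjusted p by edgeR = 4.79e-05). Both pairs of clones differed by less than 1 CPM in their SD, so the step from the control was far wider than the gap between the clones. Ddx21, an RNA helicase gene, rose from 324 to 395 and 394 CPM. Ncl and Npm1 encode nucleolin and nucleophosmin, abundant proteins of the nucleolus that bind pre-ribosomal RNA and assembling particles. Ncl (chromosome 1, 86344719 to 86359400) rose from 1409 CPM to 1672 and 1685 CPM and passed the test. Npm1 was at 1419.7 CPM in control cells and at 1474 and 1524 CPM in the clones and did not pass. Per kilobase of annotated exon, Npm1 was the higher of the pair, at 533 against 138 CPM per kilobase in the control. The lengths join the exons of all annotated transcripts, 2665 bases for Npm1 and 10188 for Ncl. Because the CPM of the pair were nearly equal, this gap rests mostly on those lengths. The annotation holds 4 pseudogenes nearly identical to Npm1 over at least 200 bases, so its count may miss or share reads.

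RNA polymerase I and its initiation factors were represented by 10 genes, of which 3 rose (Ubtf, Polr1a and Polr1c), 0 fell and 7 did not pass. Among all tested genes 24.3% rose, and among those in the control level range of the 60 genes 32.2%. The 3 of 10 is near these shares. With edgeR at an unadjusted p under 0.05, 0 fell as well, and DESeq2 called 2 higher, without Polr1c, and 0 lower. Ubtf, which encodes the HMG-box factor that coats active ribosomal DNA, stood at 165 CPM in control cells and at 254 and 249 CPM in the clones, with a fitted log2 change of 0.61 ± 0.06 (adjusted p by edgeR = 2.23e-07). Polr1a, the gene of the catalytic subunit, rose from 136 to 180.3 and 186 CPM (log2 change 0.43 ± 0.06, adjusted p by edgeR = 1.63e-05). Polr1c, whose product is shared with RNA polymerase III, rose from 76.2 to 95.9 and 99.2 CPM (0.36 ± 0.07 on the log2 scale, adjusted p by edgeR = 0.000434), and its adjusted p by DESeq2 was 0.0841.

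The remaining polymerase genes did not pass, and their log2 fold changes ran from -0.16 for Polr1e to 0.20 for Taf1b. Over the 60 genes, the median control level was 51.7 CPM for those that did not pass and 109 CPM for those that rose. Not passing therefore does not show an unchanged level. Polr1b, the gene of the other large subunit, was at 35.9 CPM in control cells and at 35.9 and 37.2 CPM in the clones. Polr1d, like Polr1c shared with RNA polymerase III, was at 83.5, 77.1 and 83.7 CPM, and the control lay between the clones. Polr1e, the gene of a subunit that helps the enzyme engage its initiation factor, was at 24.2, 20.8 and 22.7 CPM. Rrn3 encodes that initiation factor, known as TIF-IA, which couples the polymerase to growth signals. It was at 139 CPM in control cells and at 134 and 131 CPM in the clones and did not pass. The genes of the promoter selectivity factor SL1, Taf1a, Taf1b and Taf1c, had log2 fold changes of -0.03, 0.20 and 0.12 and did not pass. Taf1a had the lowest control level of the 60 genes, 15.1 CPM, and a standard error of 0.15, so smaller changes were less detectable there.

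**Figure D2:**
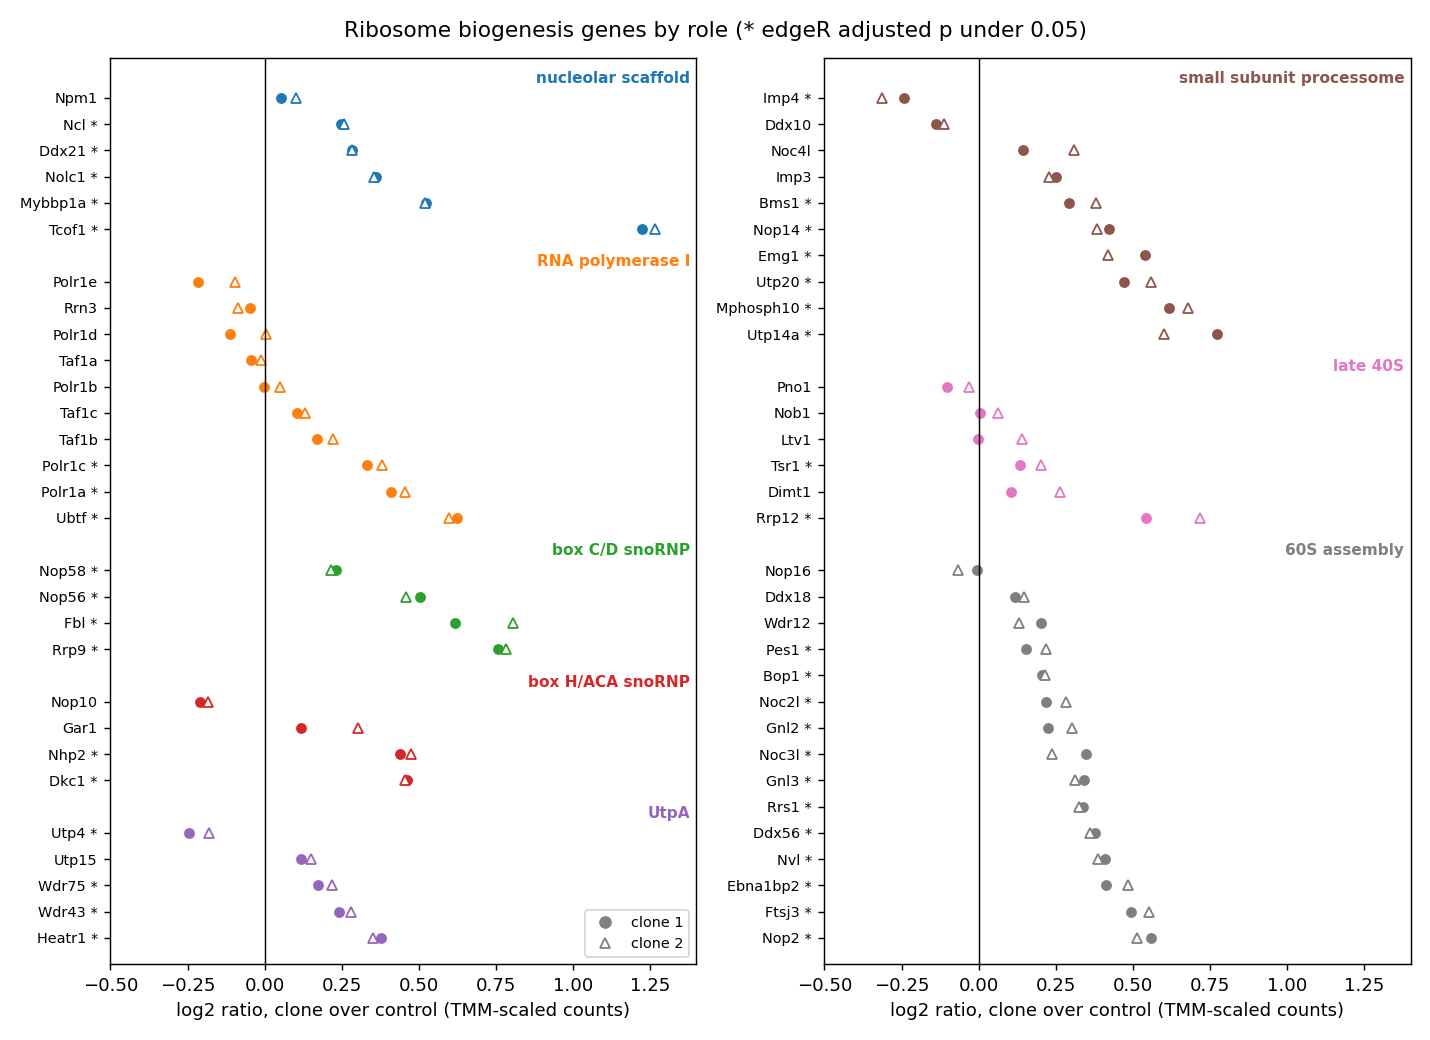
Log2 ratio of each clone over the control for all 60 genes, grouped by role, with clone 1 as filled circles and clone 2 as open triangles; stars mark an edgeR adjusted p under 0.05. Most pairs lie right of 0 and close together, Tcof1 stands farthest to the right, and Imp4 and Utp4 are the starred genes left of 0.

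All 4 core genes of the box C/D snoRNPs, which guide ribose methylation, rose, and their summed level went from 537 CPM to 728 and 737 CPM. DESeq2's test kept 3 of these 4 calls and lost that of Nop58 (adjusted p 0.118). Rrp9 (chromosome 9, 106475963 to 106485424), whose product binds the U3 small nucleolar RNA needed for the first cuts of the precursor, rose from 42.1 CPM to 71.3 and 72.5 CPM (log2 change 0.77 ± 0.08, adjusted p by edgeR = 8.37e-07). Fbl, the gene of the methyltransferase fibrillarin, stood at 88.5 CPM in the control and reached 136 CPM in clone 1 and 155 CPM in the other clone, with a fitted log2 change of 0.71 ± 0.08 (adjusted p by edgeR = 1.26e-06). Both clones were above the control, and clone 2 was above clone 1. The exons of Rrp9 overlap those of Parp3 on the opposite strand. Fbl lies on chromosome 7, where the median log2 fold change of 1069 tested genes was 0.26. The scaffold paralogs Nop56 and Nop58 rose from 179.7 to 255 and 247 CPM and from 226 to 266 and 263 CPM, with log2 fold changes of 0.48 ± 0.06 (adjusted p by edgeR = 3.05e-06) and 0.22. Nop56 has 3 annotated pseudogenes nearly identical to it, and its count is uncertain for that reason.

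The box H/ACA snoRNPs, which guide pseudouridylation, were divided: of 4 core genes, 2 rose and 2 did not pass. Over all tested genes 24.3% rose. Dkc1, the gene of the pseudouridine synthase dyskerin, rose from 169.6 CPM to 234 and 233 CPM (log2 change 0.46 ± 0.06, adjusted p by edgeR = 4.76e-06) although the median of chromosome X, where it lies, was -0.22. Nhp2 rose from 101 to 137 and 141 CPM (0.46 ± 0.06 on the log2 scale, adjusted p by edgeR = 1.72e-05). The other core subunits did not follow them past the threshold. Gar1 was at 45.4 CPM in control cells and at 49.3 and 56.1 CPM in the clones (adjusted p by edgeR = 0.0662), and Nop10 at 33.2, 28.7 and 29.2 CPM, a log2 change of -0.20. Both clones lay above the control for Gar1 and below it for Nop10.

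Within UtpA, the complex that binds the start of the nascent precursor and supports its transcription, 3 of 5 genes rose and 1 fell. Over all tested genes 24.3% rose and 25.8% fell. Heatr1 rose from 45.8 to 59.5 and 58.4 CPM (log2 change 0.37 ± 0.08, adjusted p by edgeR = 0.00142), Wdr43 rose from 128 to 151 and 155 CPM (0.26 ± 0.06, adjusted p by edgeR = 0.00194) and Wdr75 from 187 to 211 and 218 CPM. Utp4 (chromosome 8, 106893636 to 106923088), also called cirhin, fell from 91.2 CPM to 77.0 and 80.5 CPM, with a fitted log2 change of -0.21 ± 0.07 (adjusted p by edgeR = 0.0178). Utp15 was at 74.3, 80.7 and 82.4 CPM and did not pass. In DESeq2's test 0 of the 4 calls in this complex held (adjusted p between 0.147 and 0.371).

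The small subunit processome is the large particle that folds and cuts the part of the precursor that becomes the small subunit. Of 10 further genes of it, 6 rose and 1 fell (24.3% and 25.8% of all tested genes). Mphosph10, a partner of the U3 particle, rose from 79.9 CPM to 123 and 128 CPM (log2 change 0.65 ± 0.07, adjusted p by edgeR = 7.98e-07). Utp20 rose from 71.9 to 99.6 and 106 CPM (0.52 ± 0.07, adjusted p by edgeR = 1.77e-05), and Nop14 from 154 to 206 and 201 CPM (0.40 ± 0.06, adjusted p by edgeR = 2.45e-05). Utp14a, on chromosome X, was at 32.0 CPM in control cells and at 54.7 and 48.5 CPM in the clones, and Emg1, the gene of a methyltransferase, at 57.7, 83.8 and 77.1 CPM. In both the clones were above the control and clone 1 was the higher of them. Bms1, the gene of a GTPase, rose from 135 to 165 and 175 CPM.

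Mphosph10, Imp3 and Imp4 encode the 3 proteins of 1 subcomplex, of which Mphosph10 rose, Imp4 fell and Imp3 did not pass. Imp4 (ENSMUSG00000026127.13; chromosome 1, 34439851 to 34449356) fell from 141 CPM to 119 and 113 CPM, with a fitted log2 change of -0.28 ± 0.06 (adjusted p by edgeR = 0.00142), and its adjusted p by DESeq2 was 0.102. Imp3 was at 26.3, 31.3 and 30.8 CPM (log2 change 0.24). An antisense transcript, Gm28306, overlaps exons of Imp4, and how the counting treated strand is not stated. Noc4l and the helicase gene Ddx10 had log2 fold changes of 0.23 and -0.13 and did not pass.

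The late steps of small subunit maturation were represented by 6 genes, of which 2 rose and 4 did not pass. The 2 of 6 is near the 32.2% that rose among tested genes in the control level range of the 60 (24.3% of all). Rrp12, an export factor gene, rose from 37.6 CPM to 54.8 and 61.9 CPM (log2 change 0.63 ± 0.09, adjusted p by edgeR = 3.86e-05). Tsr1 had levels of 92.4, 101 and 106 CPM and was the call nearest to the threshold (adjusted p by edgeR = 0.0465). The Tsr1 call was lost with RLE size factors, the legacy fit, limma-voom and DESeq2, where its adjusted p was 0.547. The endonuclease gene Nob1 (67.0, 67.2 and 70.0 CPM), its partner gene Pno1 (78.8, 73.4 and 77.1 CPM) and the export adaptor gene Ltv1 (96.9, 96.7 and 107 CPM) had clones close to the control and did not pass. Dimt1, the gene of a base methyltransferase, had a log2 change of 0.19 and did not pass either.

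Large subunit assembly was the biggest class, and 12 of its 15 genes rose, none by as much as 1.5-fold. Over all tested genes 24.3% rose. Nop2, the gene of a cytosine methyltransferase, stood at 109 CPM in control cells and at 161 and 156 CPM in the clones (log2 change 0.54 ± 0.06, adjusted p by edgeR = 2.63e-06). Ftsj3, a ribose methyltransferase gene, rose from 122 to 172 and 179.6 CPM (0.52 ± 0.06, adjusted p by edgeR = 2.99e-06), and Nvl, the gene of an AAA ATPase that releases assembly factors, from 162 to 215 and 212 CPM (0.40 ± 0.06, adjusted p by edgeR = 2.42e-05). For these 3 genes both clones were above the control, and the gap between the clones was small beside the step. Ebna1bp2 rose from 59.2 to 78.8 and 82.7 CPM, the helicase gene Ddx56 from 85.0 to 110.3 and 109 CPM, and Rrs1, needed to install the 5S particle, from 100.4 to 127 and 126 CPM.

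The PeBoW complex, which acts in cutting the large subunit precursor, had 2 of 3 genes higher (24.3% of all tested genes). Pes1 rose from 165 to 184 and 192 CPM and Bop1 from 144 to 165 and 167 CPM, with log2 fold changes of 0.18 and 0.21, and Wdr12 was at 51.7, 59.5 and 56.5 CPM and did not pass. Pes1 has 2 annotated pseudogenes nearly identical to it. The nucleolar GTPase genes Gnl3, which encodes nucleostemin, and Gnl2 rose with log2 fold changes of 0.33 and 0.27, and Noc3l and Noc2l, whose products form precursor-binding dimers in yeast, with 0.29 and 0.25. Ddx18 and Nop16 did not pass (log2 fold changes 0.13 and -0.04). In DESeq2's test 4 of the 12 calls of this class held, those of Nop2, Ftsj3, Nvl and Ebna1bp2, and the other 8 had adjusted p-values between 0.0537 and 0.322.

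**Figure D3:**
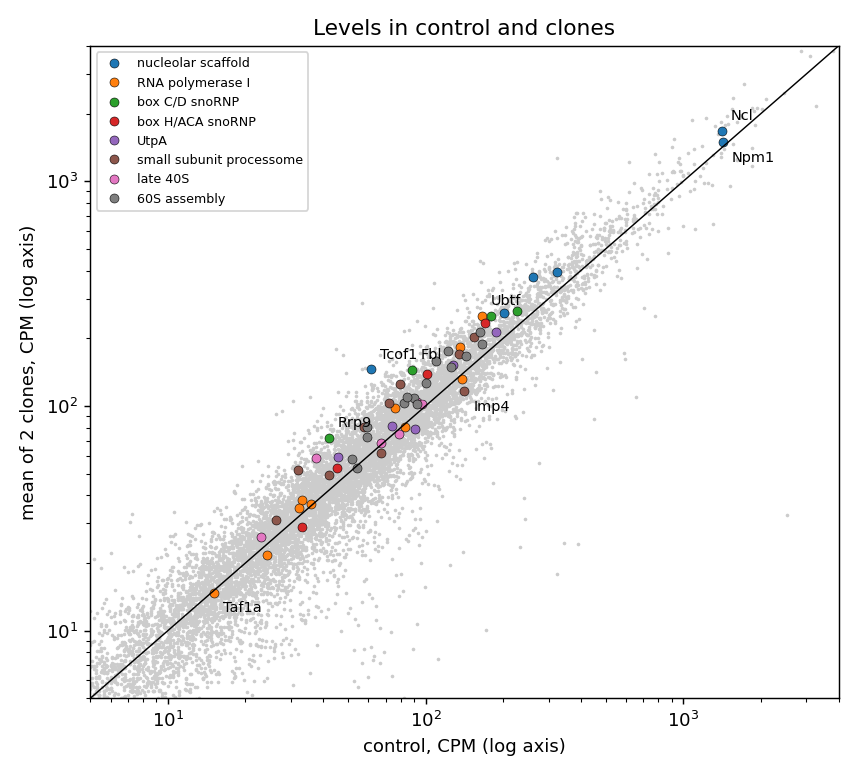
Level of each of the 60 genes in the control (horizontal, CPM, log axis) against the mean of the 2 clones (vertical, CPM, log axis), coloured by role over all tested genes in grey, with the line of equal levels. Most coloured points lie just above the line, from Taf1a at 15.1 CPM to Ncl and Npm1 at 1409 and 1419.7 CPM in the control, and grey points reach far below it.

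The clones agree within sampling noise for most of these genes. The ratio of clone 2 to clone 1 had a median of 1.02 and ran from 0.888 for Utp14a to 1.14 for Fbl, and for 53 of 60 genes it was within 10%. The exact 95% interval of the ratio, which covers counting error only, included 1 for 54 genes. It lay above 1 for 5 genes, Fbl, Gar1, Rrp12, Ltv1 and Npm1, and below 1 for Utp14a. Over all tested genes it lay above 1 for 6.01% and below 1 for 5.50%. For Fbl the ratio was 1.14 with an interval from 1.06 to 1.22. With 1 library for each clone, these differences have no replicate check and no test.

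**Figure D4:**
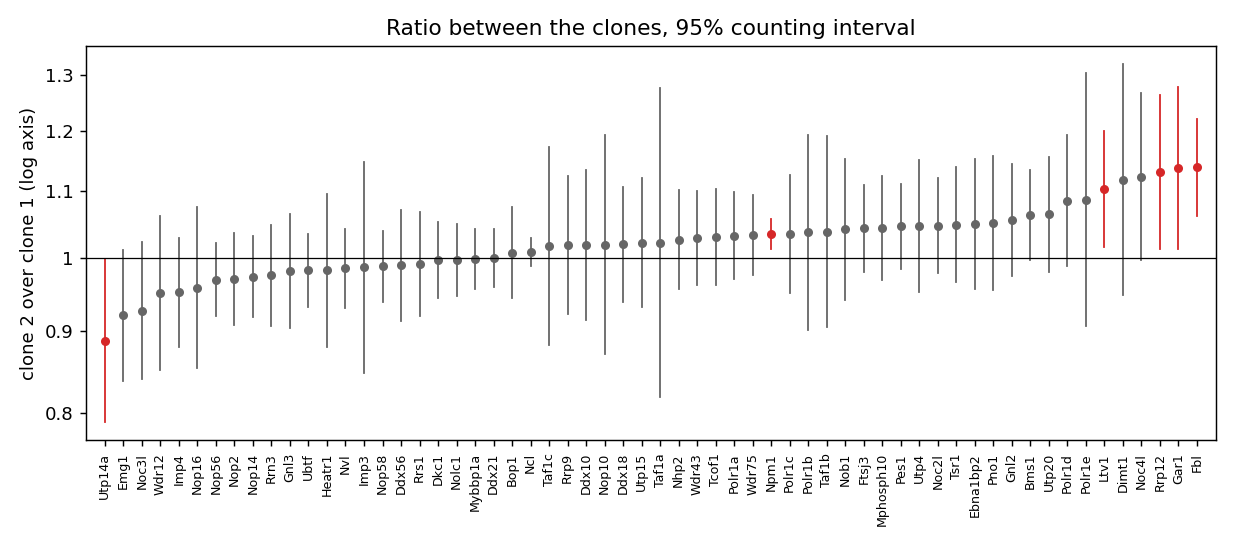
Ratio of clone 2 to clone 1 for each of the 60 genes, ordered by the ratio, on a log axis; bars are exact 95% intervals for counting error only, red where they exclude 1. The ratios run from 0.888 to 1.14, and 6 genes are red.

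The 60 genes lay on 20 chromosomes, and 51 of them had a log2 fold change above the median of all tested genes of their own chromosome. Chromosomes 7, 15, 18 and X, whose medians were 0.26, -0.28, 0.41 and -0.22, carried 6 of the 60, and all 6 (Fbl, Mphosph10, Bop1, Tcof1, Dkc1 and Utp14a) rose. Of all 2383 tested genes on these chromosomes, 765 rose and 637 fell. On the other chromosomes, 31 of 54 rose and 2 fell, with a median of 0.24 against -0.007 over all tested genes there. Of those 11322 tested genes, 2567 rose and 2896 fell. Exons of 25 of the 60 overlap another annotated gene, for 23 of them on the opposite strand, and 9 have a near-identical pseudogene. The median log2 fold change of the 30 genes with neither an exon overlap with another annotated gene nor a near-identical pseudogene was 0.26. Of these 30, 16 rose and 1 fell, against 24.3% and 25.8% of all tested genes. In a comparison chosen after the values were seen, small nucleolar RNA genes, 21 in all, lay inside 7 of the 60 (Ncl, Nop56, Nop58, Dkc1, Wdr43, Tsr1 and Gnl3), with log2 fold changes from 0.17 to 0.48. All 7 hosts passed edgeR's test, and 3 of them (Ncl, Nop56 and Dkc1) passed DESeq2's.

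Other genes of the pathway, listed separately, were examined next. Of 136 tested genes, 56 rose and 15 fell, and the median was 0.15 on the log2 scale. Among all 13705 tested genes 24.3% rose and 25.8% fell by edgeR, and DESeq2 called 6.06% of 22976 genes higher and 5.94% lower. Of the 13906 genes with an adjusted p in the authors' DESeq2 table, 10.0% were higher and 9.77% lower. Large subunit factors rose in 25 and fell in 4 of 48 cases, and small subunit factors rose in 17 and fell in 3 of 37. DESeq2 called 7 higher and 1 lower among the large subunit factors and 5 higher and 1 lower among the small subunit factors. Npm3, a nucleophosmin relative, stood at 30.5 CPM in control cells and at 53.9 and 54.7 CPM in the clones (log2 change 0.83, adjusted p by edgeR = 1.47e-06), Wdr55 at 26.4, 49.8 and 47.6 CPM, and the helicase gene Dhx33 at 52.6, 81.9 and 84.5 CPM. Among small subunit factors, Wdr46 rose from 47.3 to 73.7 and 72.5 CPM and Tbl3 from 98.6 to 140.0 and 138 CPM, while Tsr2, a chaperone gene for a ribosomal protein, fell from 64.1 to 36.1 and 38.9 CPM (log2 change -0.77, adjusted p by edgeR = 1.64e-06). Wdr55 lies on chromosome 18 and Tsr2 on chromosome X, whose median log2 fold changes were 0.41 and -0.22.

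Of 10 other RNA polymerase I genes 4 rose and 1 fell (3 and 0 with DESeq2). Polr2l, a subunit shared by the RNA polymerases, rose from 71.1 to 116 and 119.7 CPM, Cd3eap, the partner of Polr1e, from 26.4 to 42.2 and 42.8 CPM, and Polr2e, likewise shared, from 194 to 232 and 248 CPM. Polr2l and Cd3eap lie on chromosome 7. Of 18 other genes of snoRNP assembly and RNA modification 5 rose and 2 fell (2 and 0 with DESeq2). With edgeR the rising share was near the 24.3% of all tested genes. Ruvbl2, an ATPase gene of the snoRNP assembly machinery, had the largest rise of the listed pathway genes outside the 60, from 84.9 to 167 and 188 CPM (log2 change 1.06, adjusted p by edgeR = 9.89e-09). Its partner Pih1d1, like Ruvbl2 on chromosome 7, rose from 27.4 to 44.4 and 45.3 CPM, and the acetyltransferase gene Nat10 from 49.2 to 66.8 and 63.8 CPM. The RNA exosome and RNase MRP, which trim and cut the precursor, had 5 genes higher and 5 lower of 23 (3 and 1 with DESeq2). With edgeR both shares were near those of all tested genes, 24.3% higher and 25.8% lower. Exosc2 and Exosc8 rose, with log2 fold changes of 0.49 and 0.57, and Pop1, on chromosome 15, fell from 54.8 to 26.9 and 28.3 CPM (log2 change -0.99, adjusted p by edgeR = 2.52e-07).

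The promoters of the 60 genes were read from RefSeq (GRCm38.p6), 250 bases before to 50 after the start, of which 53 had an entry. The E-box CACGTG, a palindrome, was found in 11 of the 53 (20.8%) and in 10.2% of 9982 promoters of tested genes. The ETS motif CCGGAAGT, on either strand, was found in 16 of the 53 (30.2%) and in 8.69% of all. In none of the 53 did a match of one overlap a match of the other. Genes that rose held the E-box in 6 and the ETS motif in 9 of 31 promoters, and the other genes in 5 and 7 of 22. Searched by single consensus strings on both strands, the NRF1 motif was found in 1 of 53 (2.15% of all), the YY1 and BANP motifs in 0 (2.18% and 1.11% of all) and TATAAA in 2 (6.55% of all). The stretches below show both motifs, in capitals, before the start of 2 genes that rose (Nop2 and Nvl), the 2 that fell (Imp4 and Utp4) and 1 that did not pass (Rrn3), each written 5′ to 3′ on the gene's strand and ending at the last base before the start.
Nop2, chr6:125131753-125131882, plus strand: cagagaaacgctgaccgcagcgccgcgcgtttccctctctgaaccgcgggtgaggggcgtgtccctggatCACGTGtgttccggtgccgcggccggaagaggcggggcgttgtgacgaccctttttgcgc
Nvl, chr1:181144205-181144334, minus strand: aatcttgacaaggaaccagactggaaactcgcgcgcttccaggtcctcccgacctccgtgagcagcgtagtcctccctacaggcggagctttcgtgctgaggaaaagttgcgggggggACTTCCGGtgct
Imp4, chr1:34439699-34439828, plus strand: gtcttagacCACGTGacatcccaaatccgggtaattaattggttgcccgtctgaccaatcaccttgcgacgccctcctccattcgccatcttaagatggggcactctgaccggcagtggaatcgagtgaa
Utp4, chr8:106893590-106893639, plus strand: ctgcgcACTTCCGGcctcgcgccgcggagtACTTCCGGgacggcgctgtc
Rrn3, chr16:13780449-13780698, plus strand: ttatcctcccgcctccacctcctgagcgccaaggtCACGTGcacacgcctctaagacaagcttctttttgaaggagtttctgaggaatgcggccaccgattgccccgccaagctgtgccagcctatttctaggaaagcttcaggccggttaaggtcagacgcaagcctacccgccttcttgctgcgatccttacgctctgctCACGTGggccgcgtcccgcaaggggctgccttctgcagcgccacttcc
In Nop2 the E-box began 60 bases before the start and in Imp4 121 bases before it, although Nop2 rose and Imp4 fell. Nvl held 1 ETS motif, 12 bases before the start, and Utp4 held 2, at 44 and 20 bases. An ETS match of Rrn3 that spans the start is not in capitals. The start is that of the RefSeq entry, and the last 4 bases of the Utp4 stretch lie in the Gencode exon of Utp4. Exons annotated as Chtf8 also overlap the Utp4 stretch, and exons of the antisense Gm28306 overlap that of Imp4. Rrn3 was the only one of the 53 with 2 E-boxes, at 215 and 48 bases, which 1.13% of all promoters had, and its transcript did not pass. A match is a description of the letters in this window and not of binding.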

How the data were processed

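Libraries of polyadenylated RNA came from a kit that keeps strand, by the labels' protocols. The authors made the raw counts, whole reads per gene, with STAR 2.5 and its gene counting option on GRCm38/mm10 with Gencode M16 (Ensembl 91), per the file headers, and the submitters' processing notes name STAR 2.5.3. Which strand column was taken is not stated there. The authors' RPM columns (reads scaled to library size, per the file headers) served as a check on totals. The authors' deposited table of DESeq2 results gives log2 fold changes, their standard error (held as a score), p-values and adjusted p-values, per the file headers.

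All 22976 genes entered the fit, and filterByExpr kept 13705. Testing used the quasi-likelihood F test of edgeR (edgeR 4.0.16, legacy option off, R 4.3.3), two-sided, with TMM factors and Benjamini-Hochberg adjustment over all tested genes at 0.05. The standard error was taken as the size of the log2 fold change over the square root of F. Single-clone ratios used a prior count of 1, and ratios between clones exact 95% intervals, which cover counting error only, because the reads carry no molecular identifiers. Totals of 11307034 to 11700755 counts set this precision. On simulated data with 13705 genes a 1.25-fold change was found for 54% of the changed genes. A 1.5-fold change was found for 62% and a 2-fold change for 78%, and 3 calls were false. These values hold only if the control varies like the clones. Only 50 genes were changed at each fold, over a wider range of levels than the members, whereas 50.1% of tested genes were called in the data. The shares found therefore do not give the recovery for the members. Positions, exons and pseudogenes (blastn 2.17.0, 95% identity over 200 bases) came from Gencode M21 on GRCm38. One promoter a gene was used, that nearest to the annotated start.

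The members, lists, tests and alternatives were chosen with earlier results of these data known. All 60 members could be named, with full statistics (log2 change, standard error and edgeR's adjusted p) for up to 3 a class, those with the lowest p, and for those that fell. Levels, and for some a log2 change or the p of an alternative test, are given for the others. Rrm2, the proliferation gene that fell, was named after its value was seen. From the other pathway lists the 3 genes with the lowest p were named, and Snu13 was added after its value was seen. No other column of per-sample values was present.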

Additional observations from a re-analysis of the deposited data

How the results depend on the processing

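The direction of all 39 calls among the 60 genes was the same under every alternative run that included the gene. The numbers called higher and lower were 36 and 2 with RLE size factors, with the legacy quasi-likelihood fit and with limma-voom 3.58.1 (Tsr1 was the call lost each time), 37 and 2 with the robust fit and 39 and 2 with a mean CPM of at least 1 (Gar1 and Noc4l added). Without chromosomes 7, 15, 18 and X they were 32 and 2 of 54, against 23.5% and 24.8% of all 11322 tested genes. DESeq2 1.42.0 gave 23 and 0. With no low-count filter edgeR called 0 and 0 of the 60, and 0 higher and 4 lower of 22976 genes, with an unadjusted p under 0.05 for 38 and 2 of the 60, and likewise 0 and 0 when the legacy fit was added, an alternative chosen after seeing the data. The cause was not tested. With a preset variation of 10% 14 rose and 0 fell (unadjusted 20 and 0), and with 20% 1 rose, Tcof1, and 0 fell (unadjusted 2 and 0). Across all tested genes, calls went from 3332 higher and 3533 lower to 1436 and 2181 with 10% and to 156 and 992 with 20%. The median log2 fold change of the 60 genes stayed between 0.24 and 0.28, with either clone left out at 0.24 and 0.28. Leaving out a clone leaves no residual degrees of freedom, so no calls were made there. In the other pathway lists DESeq2 gave 2 higher and 0 lower for snoRNP and modification genes, 5 and 1 for small subunit, 7 and 1 for large subunit, 3 and 1 for exosome and RNase MRP genes, and 0 lower for RNA polymerase I genes. RLE size factors and limma-voom each gave 3 higher for the snoRNP and for the exosome genes. No paired analysis was possible because the control has 1 library and shares no pairing with the clones. The counting depth limits the genes of lowest level, such as Taf1a and Polr1e.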
